A study of Homo sapiens with 6 samples.

Results

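The genes examined were 7 matrix metalloproteinases, MMP1, MMP2, MMP3, MMP9, MMP10, MMP14 and MMP15, and 3 tissue inhibitors of metalloproteinases, TIMP1, TIMP2 and TIMP3. They were taken by gene name from a table of 58735 genes, and all 10 were present. RNA was sequenced from U251 cells, an established human glioblastoma line, after 24 h with sterile deionized water (NC group, n = 3) or with recombinant human TNF-α at 10 ng/mL (TNF-α group, n = 3). The labels describe the libraries of a group as independent biological replicates of this single line. Levels are given as FPKM, fragments per kilobase of gene length and per unit of a scaled library total. RNA was measured in bulk, so a change in all cells and a change in the share of cells that express a gene cannot be told apart.

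Matrix metalloproteinases are zinc-dependent enzymes that are made as inactive precursors and cleave proteins of the extracellular matrix once the propeptide is removed. Most are secreted, whereas MMP14 and MMP15 are anchored in the plasma membrane and act at the cell surface. TIMPs block the active site, and TIMP2 has a further role, since a complex of MMP14 and TIMP2 at the cell surface binds the precursor of MMP2 for its activation. In glioblastoma these genes are studied because the tumor cells invade the surrounding brain matrix, and the study measured migration and invasion of U251 cells beside the sequencing.

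The libraries held 31992167 to 37897044 reads in genes. NFKBIA, an inhibitor of NF-κB that is induced by TNF-α, rose from 13.6 ± 0.735 FPKM under water to 102 ± 23.1 FPKM under TNF-α (SD, n = 3 per group; limma, log2 fold change 2.79, SE 0.20, adjusted p 0.00415). All 5 genes of the TNF-α response list that holds it rose with an adjusted p under 0.05 in limma, against 0.717% of all genes tested. The list was chosen as a check that the treated libraries responded. TNF-α replicates 2 and 3 stood apart from the other 4 libraries. Reads were found for 37.5% and 37.2% of genes, against 41.8% to 42.7% elsewhere. Their FPKM summed to 463340 and 408175, against 256373 to 266716 elsewhere. Ratios to NC in these 2 libraries therefore run higher in FPKM than in TPM, which sums to 1 fixed total in each library. In these 2 libraries 16.6% and 17.9% of reads came from genes over 8 kb, against 28.8% to 29.1% elsewhere, and 3592 and 2663 genes differed from the NC mean by at least 1 on the log2 scale, against 152 in TNF-α replicate 1. No NC library had this composition, so within these 2 libraries the treatment and the composition cannot be told apart, and values are given by library. Of 6 glioma and astrocyte markers, 5 had a mean of at least 1 FPKM, S100B being the exception. None of 5 leukocyte markers did, their summed level was 0.869 to 1.16 FPKM in NC and 0.654 to 1.64 FPKM in TNF-α libraries, and PTPRC and CD3E had no reads. Of 5 endothelial and 4 epithelial markers, 1 each reached that mean, KDR and KRT18.

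In U251 cells the family was carried by 4 genes. In the NC group TIMP1 had the highest mean at 53.2 ± 5.21 FPKM (SD, n = 3), followed by MMP14 at 50.2 ± 3.06, TIMP2 at 45.7 ± 3.15 and MMP2 at 29.05 ± 1.89 FPKM. The ranges of TIMP1 and MMP14 and those of MMP14 and TIMP2 overlapped, so their order is not resolved, and MMP2 lay below all 3. MMP15 followed at 1.14 ± 0.0935 FPKM, and TIMP3 at 0.736 ± 0.190, MMP3 at 0.301 ± 0.1003, MMP1 at 0.151 ± 0.0495, MMP10 at 0.0630 ± 0.109 and MMP9 at 0.00395 ± 0.00684 FPKM were below 1. In the TNF-α group the same 4 genes led, with TIMP1 at 136 ± 74.6 FPKM, MMP14 at 88.6 ± 11.8, TIMP2 at 40.7 ± 3.37 and MMP2 at 23.2 ± 1.37 FPKM. TIMP1 and MMP14 still overlapped in range, whereas the ranges of MMP14 and TIMP2 no longer did.

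**Figure D1:**
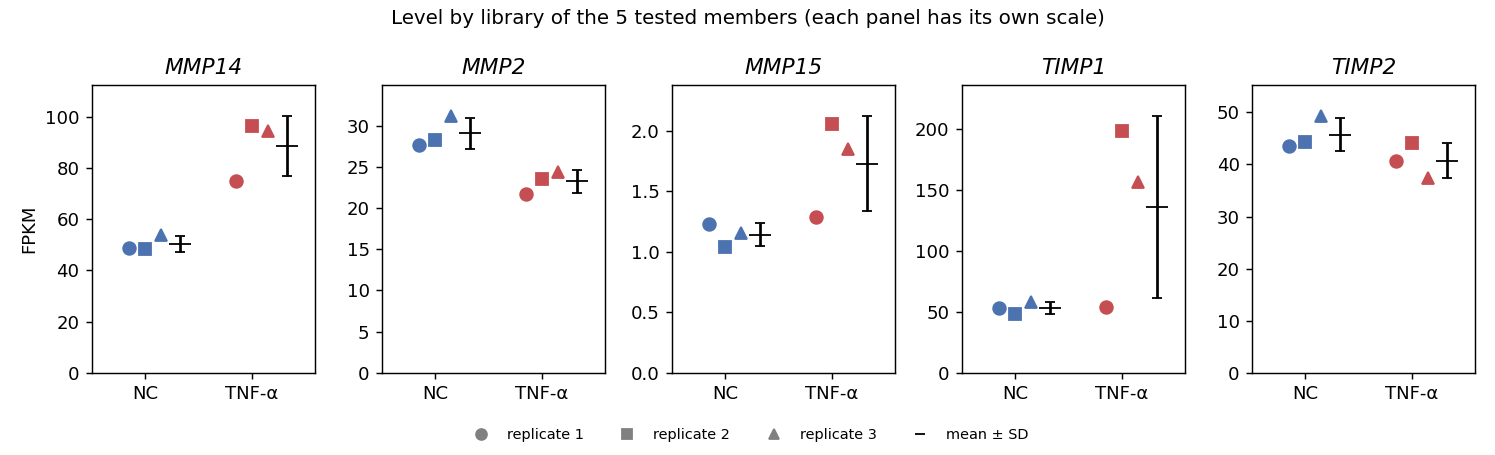
FPKM (y axis, from 0, a separate scale per gene) in the NC and TNF-α libraries for MMP14, MMP2, MMP15, TIMP1 and TIMP2, with 1 point per library shaped by replicate number and the mean ± SD beside the points. MMP14 was above every NC library in 3 of 3 TNF-α libraries and MMP2 below in 3 of 3, while TIMP1 of TNF-α replicate 1 (53.7 FPKM) lay among the NC libraries and replicates 2 and 3 (199 and 157 FPKM) far above them. Groups without overlap were found for 30.1% of all genes tested (14.8% higher and 15.3% lower).

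To determine which members were changed by TNF-α, log2(FPKM + 1) was compared between the groups with limma across the 12136 genes with at least 1 FPKM in at least 3 libraries. The filter was passed by 5 of the 10 members, MMP14, MMP2, MMP15, TIMP1 and TIMP2, and each of them had at least 1 FPKM in all 6 libraries. None of the 5 reached an adjusted p under 0.05, against 1.01% of all genes tested (123 genes, 0.717% higher and 0.297% lower). MMP14, 1 of the 5, had an unadjusted p under 0.05, as did 2942 of the 12136 genes tested, a like share. Limma-voom on the reads recovered from the FPKM also called 0 of the 5 (0.634% of all genes). The groups did not overlap for 3 of the 5 members, MMP14 and MMP15 higher and MMP2 lower, whereas 30.1% of all genes tested had groups without overlap (14.8% higher and 15.3% lower). The exact permutation test of 3 against 3 libraries cannot give a p below 0.1, and it gave 0.1 for MMP14, MMP2 and MMP15 and 0.2 for TIMP1 and TIMP2 (two-sided).

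MMP14, the membrane-anchored collagenase that also activates the precursor of MMP2, was the member with the smallest adjusted p. Its level was 48.8, 48.2 and 53.8 FPKM in NC replicates 1 to 3, compared with 75.1, 96.4 and 94.4 FPKM in TNF-α replicates 1 to 3. All 3 TNF-α libraries lay above every NC library. Their order depended on the scale, since TNF-α replicate 1 was the lowest of them in FPKM and the highest in TPM (282, against 208 and 231, and 188 to 202 in NC). The mean was 1.76-fold higher, with a log2 fold change of 0.80 (SE 0.16, 95% interval 0.41 to 1.19), an unadjusted p of 0.00230 and an adjusted p of 0.109 in limma. These values rest on 7054 to 11152 reads per library. The gene (ENSG00000157227) lies on the plus strand of chromosome 14, from 22836557 to 22849027 on GRCh38, with 12 merged exons of 4464 bases in all that no exon of another gene overlaps.

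Leaving out either kind of TNF-α library kept MMP14 higher. With TNF-α replicate 1 as the only treated library, which is then assumed to vary like the NC libraries, the log2 fold change was 0.57 and the adjusted p 0.0166, a fit that called 6.03% of all genes. In that library 3.11% of all genes tested were as far or farther above the NC mean than MMP14, against 20.0% and 15.9% in TNF-α replicates 2 and 3. Without TNF-α replicate 1 the log2 fold change of MMP14 came to 0.91 (adjusted p 3.2e-05), but that fit called 79.4% of all genes, so MMP14 shared its call with most of them. Leaving out any other single library gave adjusted p-values from 0.338 to 0.479 and no call, in fits that called 0.14%, 0.0824% and 0.107% of all genes without NC replicates 1 to 3 and 0.346% and 0.165% without TNF-α replicates 2 and 3.

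The promoter of MMP14 is shown as a description. Its treated libraries all lay above every NC library, as did those of MMP15 and of 14.8% of all genes tested. The stretch below is chr14:22836437-22836556 (GRCh38.p14, plus strand), 148 to 29 bases before the RefSeq start, with the GC box in capitals.
MMP14: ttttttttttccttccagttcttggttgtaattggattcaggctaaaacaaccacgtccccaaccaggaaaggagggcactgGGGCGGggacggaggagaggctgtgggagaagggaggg
RefSeq promoter sequences were matched for 5 members, MMP10, MMP14, MMP15, TIMP1 and TIMP3. In the 250 bases before each start, 5 motifs were searched on both strands, AP-1 (TGANTCA), the ETS factor motif PEA3 (AGGAAG), the TATA box (TATAAA), the GC box (GGGCGG) and the κB consensus by its name. MMP14 held 1 GC box, 66 bases before the start, and none of the other letters. A GC box was present in 42.6% of 35116 such windows, AP-1 in 6.57%, PEA3 in 28.7%, the TATA box in 10.7% and the κB consensus in 9.96%. No κB match was found in the 5 windows, which says nothing about sites elsewhere.

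MMP2, a secreted gelatinase that degrades type IV collagen and denatured collagen, was lower. Control levels were 27.6, 28.3 and 31.2 FPKM, and treated levels were 21.7, 23.5 and 24.4 FPKM (replicates 1 to 3 in each case). Each TNF-α library lay below each NC library. TNF-α replicate 1 was the lowest in FPKM, but the highest treated library in TPM (81.4, against 50.8 and 59.8, and 107 to 117 in NC). The log2 fold change was -0.31 (SE 0.13, 95% interval -0.62 to 0.0019) with an adjusted p of 0.195 in limma. With TNF-α replicate 1 as the only treated library it was -0.40 (adjusted p 0.0574), and 4.14% of all genes were as far or farther below the NC mean in that library, against 35.8% and 36.3% in TNF-α replicates 2 and 3. MMP2 (ENSG00000087245) lies on chromosome 16, 55389700 to 55506691, plus strand. An exon of AC007336.3 on the same strand covers 3.53% of its exonic length, and reads there may be ambiguous.

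MMP14 and MMP2 differed in opposite directions, so their ratio was taken within each library. The ratio of MMP14 to MMP2, which no scaling of a whole library can alter, was 1.76, 1.70 and 1.72 in NC replicates 1 to 3, compared with 3.46, 4.10 and 3.87 in TNF-α replicates 1 to 3. The means were 1.73 ± 0.0316 and 3.81 ± 0.323 (SD, n = 3 per group), and the groups did not overlap. MMP14 made up 61.7% to 62.3% of the summed FPKM of the 7 metalloproteinases in NC and 76.0% to 78.3% in TNF-α libraries, while MMP2 made up 35.3% to 36.3% and 19.1% to 22.0%. The exonic lengths of both genes are similar, 4464 and 4933 bases, as is the GC content of their longest transcripts, 58.9% and 56.5%. This ratio was chosen after the values had been seen and is given as a description.

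TIMP1, a secreted inhibitor of most metalloproteinases, differed between the treated libraries. Controls gave 53.2, 47.9 and 58.3 FPKM, compared with 53.7 FPKM in TNF-α replicate 1 and 199 and 157 FPKM in TNF-α replicates 2 and 3. TNF-α replicate 1 lay inside the NC range and the other two lay above it. In these 2 libraries 2.50% and 2.57% of all genes tested were as far or farther above the NC mean, and 10.1% in each after the correction for GC content and length described below. The log2 fold change of 1.15 had an SE of 0.48 (95% interval -0.01 to 2.32, adjusted p 0.195). Its log2 fold change was 1.72 without TNF-α replicate 1 (adjusted p 2.0e-05 in limma), in a fit that called 79.4% of all genes. With that library alone it was 0.02. TIMP1 is the shortest member, with 1541 exonic bases. It lies on the X chromosome (ENSG00000102265, 47582313 to 47586789, plus strand) inside SYN1, which is on the opposite strand, with no exonic overlap.

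The motif matches of TIMP1 are given for comparison with MMP14. Its window held 1 PEA3 match, 87 bases before the RefSeq start, shown in capitals in chrX:47582337-47582366 (GRCh38.p14, plus strand), and 2 GC boxes at 45 and 135 bases. In GENCODE TIMP1 starts earlier, at 47582313, so the stretch shown lies inside the gene as annotated for the FPKM.
TIMP1: agtaatgcatccAGGAAGcctggaggcctg

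TIMP2, the inhibitor that also takes part in the activation of MMP2, was at 43.5, 44.3 and 49.4 FPKM in the controls, compared with 40.6, 44.1 and 37.4 FPKM after TNF-α. TNF-α replicates 1 and 3 lay below the NC range and replicate 2 inside it. The log2 fold change was -0.17 (SE 0.14, 95% interval -0.51 to 0.17, adjusted p 0.374). MMP14 to TIMP2, the pair whose complex binds the MMP2 precursor, had ratios of 1.09 to 1.12 in NC and 1.85 to 2.53 in TNF-α libraries. MMP2 to TIMP2 gave 0.632 to 0.638 in NC and 0.534 to 0.653 in TNF-α libraries, with an overlap through TNF-α replicate 3. Exons of AC022966.1 and CEP295NL cover 10.03% of the exonic length of TIMP2 (ENSG00000035862, chromosome 17, 78852977 to 78925387, minus strand). Reads there may be ambiguous, and their effect on the values of TIMP2 was not measured.

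MMP15, a second membrane-anchored member, was low. Controls gave 1.23, 1.04 and 1.16 FPKM and treated libraries 1.29, 2.05 and 1.85 FPKM, from 151 to 235 reads. TNF-α replicate 1 exceeded the highest NC library by a small margin, and its log2 ratio to the NC mean was 0.10, against 0.51 and 0.41 in replicates 2 and 3. The log2 fold change was 0.34 (SE 0.15, 95% interval -0.02 to 0.70, adjusted p 0.195). MMP15 (ENSG00000102996, chromosome 16, 58025566 to 58046901, plus strand) is the member richest in GC, at 66.0% of the longest transcript, and its promoter window held 5 GC boxes.

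**Figure D2:**
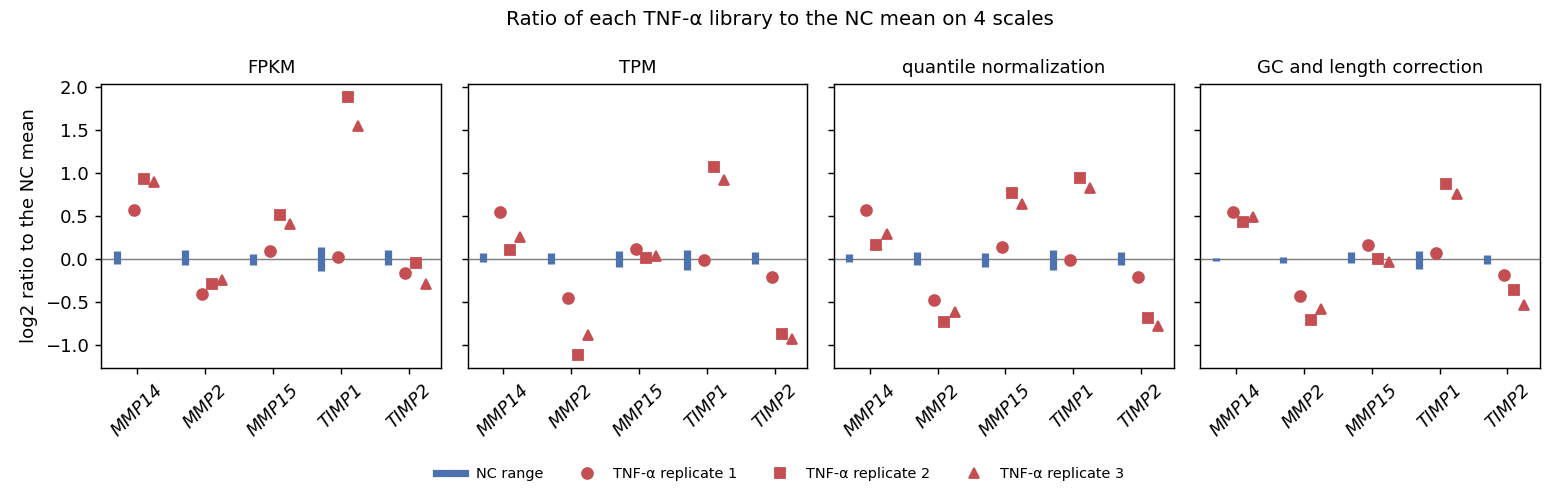
Log2 ratio of each TNF-α library to the NC mean (y axis) for the 5 tested members on 4 scales, log2(FPKM + 1), log2(TPM + 1), quantile-normalized values and values corrected for GC content and length; bars show the range of the NC libraries and symbols the TNF-α replicates. MMP14 stayed above and MMP2 below the NC bar on all 4 scales, TIMP1 of TNF-α replicate 1 stayed within it, and MMP15 of replicates 2 and 3 came within it under TPM and the correction. By FPKM, 30.1% of all genes tested had groups without overlap.

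Because TNF-α replicates 2 and 3 differed from the others by gene length and GC content, the comparison was repeated after a correction for both. Together they fitted 39.3% and 38.2% of the variance of the log2 ratios in these 2 libraries, compared with 1.41% in TNF-α replicate 1 and 3.41%, 12.6% and 16.7% in NC replicates 1 to 3. After the correction the log2 ratios of MMP14 were close to each other, at 0.54, 0.43 and 0.49 in TNF-α replicates 1 to 3, and those of MMP2 were -0.43, -0.70 and -0.58. Both passed the threshold, MMP14 with a log2 fold change of 0.49 (SE 0.08, adjusted p 0.0324) and MMP2 with -0.57 (SE 0.10, adjusted p 0.0395), where 2.79% of all genes tested passed (1.78% higher and 1.01% lower). Each call was lost without NC replicate 1, 2 or 3 or TNF-α replicate 2 or 3, with adjusted p-values up to 0.239 for MMP14 and 0.233 for MMP2, and was kept without TNF-α replicate 1, where 70.8% of all genes passed. The fits that lost it called 0.437%, 0.396% and 0.379% of all genes without NC replicates 1 to 3 and 0.898% and 0.519% without TNF-α replicates 2 and 3. TIMP1 remained split, at 0.07 in TNF-α replicate 1 compared with 0.87 and 0.75 in the other two (log2 fold change 0.56, adjusted p 0.170). TIMP2 was lower in 3 of 3 libraries, at -0.19, -0.36 and -0.54 (log2 fold change -0.36, adjusted p 0.137). MMP15 had a log2 fold change of 0.04 after the correction (95% interval -0.22 to 0.31, adjusted p 0.766).

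The scale also set the size of the changes. TPM shifted the median over the genes tested to -0.42 on the log2 scale. On this scale MMP14 had a log2 fold change of 0.31, MMP2 -0.82, MMP15 0.06, TIMP1 0.66 and TIMP2 -0.67. No member passed the threshold on that scale, where 0.478% of all genes did, and all 5 kept their direction. Relative to the median of all genes, MMP14 and TIMP1 were higher and MMP2 and TIMP2 lower under both scales.

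The 5 members under the filter are described by their reads and were not part of the main test. MMP1, interstitial collagenase, gave 10, 7 and 13 reads in the controls, compared with 22, 19 and 21 after TNF-α. The treated libraries did not overlap the controls, and relative to all reads in genes its level was 2.12-fold higher. Groups without overlap were also found for 30.1% of the genes that passed the filter (14.8% higher), a set without MMP1. With every gene above 0 in the test, MMP1 had a log2 fold change of 0.27 (SE 0.07, unadjusted p 0.00727, adjusted p 0.307), where 0.183% of 31662 genes were called, and with limma-voom on all genes with reads 1.08 (SE 0.49, adjusted p 0.250, 0.325% of genes called). An exon of WTAPP1 on the opposite strand overlaps 7.61% of its exonic length.

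MMP3, stromelysin-1, had 18, 28 and 16 reads in NC and 22, 30 and 25 reads in TNF-α libraries, and the groups overlapped (adjusted p 0.433 with every gene tested). MMP10, stromelysin-2, had 12, 0 and 0 reads in NC and 2, 6 and 2 reads in TNF-α libraries, and NC replicate 1 held the highest value of all. MMP9, the second gelatinase, had 1, 0 and 0 reads in NC and 1, 2 and 2 reads in TNF-α libraries. A level of 0.0355 to 0.0529 FPKM corresponds to 3 reads of MMP9, every library was below it, and this depth cannot show a difference in MMP9. An antisense gene, SLC12A5-AS1, overlaps 18.4% of the exonic length of MMP9. TIMP3, an inhibitor that binds to the matrix, had 92, 109 and 138 reads in NC and 115, 63 and 46 reads in TNF-α libraries, and TNF-α replicate 1 lay among the controls (adjusted p 0.601 with every gene tested).

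**Figure D3:**
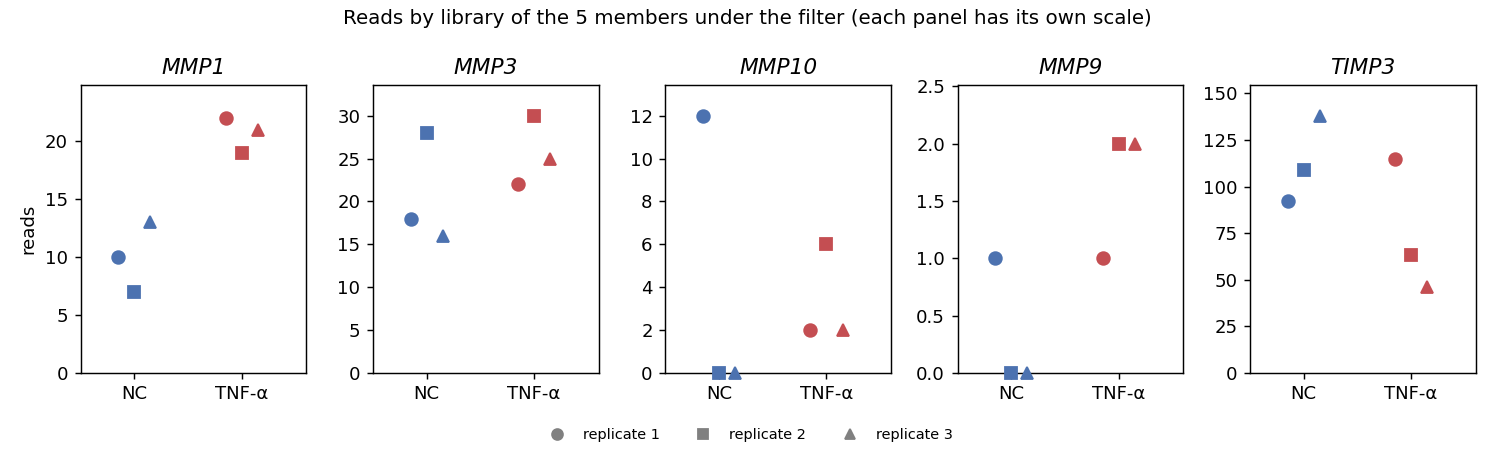
Reads per library (y axis, from 0, a separate scale per gene) of MMP1, MMP3, MMP10, MMP9 and TIMP3 in the NC and TNF-α groups, 1 point per library shaped by replicate number. MMP1 had groups without overlap (7 to 13 against 19 to 22 reads), as did 30.1% of the genes tested by FPKM. MMP3, MMP10 and TIMP3 overlapped, and MMP9 did not exceed 2 reads.

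MMP10, MMP1 and MMP3 are neighbours on the minus strand of chromosome 11, between 102770503 and 102843803. Only 5 member windows were searched, and those of MMP1 and MMP3 were not among them. The MMP10 promoter is shown because, of these 5, only it held an AP-1 match and a TATA box. AP-1 is the motif of FOS and JUN proteins. The match lay 67 bases before the start and the TATA box 31 bases before it. The stretch is chr11:102780629-102780748 (GRCh38.p14, minus strand), 120 to 1 bases before the start, with both motifs in capitals.
MMP10: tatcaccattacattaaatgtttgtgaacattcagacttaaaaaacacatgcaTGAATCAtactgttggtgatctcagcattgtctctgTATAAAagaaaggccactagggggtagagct

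The RNA levels of inhibitors and of enzymes were then summed as a description, which does not measure inhibition of any enzyme. The 7 metalloproteinases summed to 81.0 ± 4.86 FPKM in controls, compared with 115 ± 13.6 FPKM after TNF-α, and the 3 TIMPs to 99.6 ± 8.07 and 178 ± 75.6 FPKM (SD, n = 3 per group). In TNF-α replicate 1 the TIMP sum was 95.1 FPKM, inside the NC range of 93.0 to 109. Under TPM the mean TIMP sum was 1.19-fold of NC, against 1.78-fold as FPKM. The ratio of TIMPs to metalloproteinases was 1.19 to 1.25 in NC libraries, 0.962 in TNF-α replicate 1 and 1.98 and 1.60 in TNF-α replicates 2 and 3. The treated libraries lay on both sides of the controls. The ratio of TIMP1 to MMP14 split in the same way, with 0.995 to 1.09 in NC libraries, 0.715 in TNF-α replicate 1, and 2.06 and 1.66 in the other two.

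**Figure D4:**
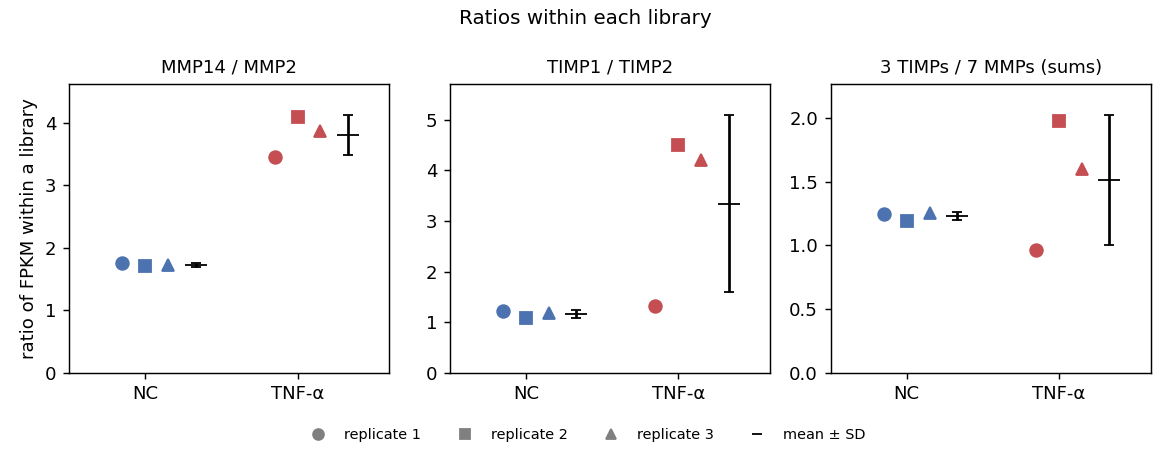
Ratios of FPKM within each library (y axis, from 0) of MMP14 to MMP2, TIMP1 to TIMP2 and the sum of 3 TIMPs to the sum of 7 metalloproteinases, by group, with 1 point per library and the mean ± SD. MMP14 to MMP2 was 1.70 to 1.76 in NC and 3.46 to 4.10 in TNF-α libraries, whereas the TIMP sum ratio of TNF-α replicate 1 (0.962) lay below and those of replicates 2 and 3 above the NC range.

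Genes whose pattern over the 6 libraries was most like that of MMP14 were CD82, a tetraspanin of the cell surface, with Pearson's r of 0.9997, RELB, a subunit of NF-κB, with 0.998, and PPARD, a nuclear receptor, with 0.998. These correlations are over 6 libraries that share the split between the groups and that of TNF-α replicates 2 and 3. CD82 had 17.8, 17.1 and 22.6 FPKM in NC and 58.1, 106 and 101 FPKM in TNF-α libraries.

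Related genes were read from the same fit, and of those that were not called MMP16, RECK, PLAU and PLAUR were picked as examples with their values known. Of 16 other metalloproteinase genes, 3 (MMP20, MMP26 and MMP27) had no reads in any library, 7 did not exceed 20 reads in any, and 2, MMP16 and MMP17, were tested without a call. MMP16, also membrane-anchored, had 1.83 ± 0.158 FPKM in NC and 0.633 ± 0.436 in TNF-α (log2 fold change -0.82, adjusted p 0.161). By library it was at 1.14, 0.357 and 0.408 FPKM in TNF-α replicates 1 to 3. MMP7, matrilysin, was chosen after its values were seen, with 15, 12 and 8 reads in NC and 53, 69 and 85 in TNF-α libraries and an adjusted p of 0.207 with every gene tested. Among 9 other inhibitors 4 were tested and none was called, including RECK, a membrane-bound inhibitor of metalloproteinases, at 7.94 ± 0.243 and 5.99 ± 1.37 FPKM (adjusted p 0.195). RECK was at 7.41, 4.68 and 5.89 FPKM in TNF-α replicates 1 to 3.

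Of 15 genes of activation, binding and clearance, 12 were tested and 1 rose, against 0.717% of all genes tested. It was CLDN1, a tight junction protein, from 2.82 ± 0.513 to 9.11 ± 2.13 FPKM (limma, log2 fold change 1.39, SE 0.20, adjusted p 0.0411). Its call was lost under 14 of 26 alternatives. PLAU and PLAUR, the urokinase protease and its receptor, did not pass, with 82.1 ± 3.63 against 170 ± 40.7 FPKM (adjusted p 0.133) and 34.0 ± 1.78 against 93.3 ± 29.9 FPKM (adjusted p 0.104). TNF-α replicates 1 to 3 had 123, 200 and 186 FPKM of PLAU and 59.0, 114 and 107 FPKM of PLAUR. The median log2 fold change of the 12 was -0.08, against 0.04 over all genes tested, and by library it was 0.08, -0.27 and -0.23 in TNF-α replicates 1 to 3. Its sign was not stable, with 0.13 after the GC and length correction, 0.03 without TNF-α replicate 2 and -0.58 under TPM.

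Of 19 transcription factors known to act on metalloproteinase promoters, 16 were tested and 4 rose, against 0.717% of all genes tested. They were RELB and NFKB2, subunits of NF-κB, with log2 fold changes of 3.48 (adjusted p 0.0185) and 2.63 (adjusted p 0.0173), and JUNB and FOSL1, subunits of AP-1, with 2.31 (adjusted p 0.0201) and 1.08 (adjusted p 0.0498). The calls of RELB, NFKB2 and JUNB were each lost under 7 of 26 alternatives, with every gene tested, with the replicate block and without any 1 library other than TNF-α replicate 1 (adjusted p up to 0.168). FOSL1 was the most abundant of these, at 168 ± 12.1 FPKM in NC and 356 ± 21.7 in TNF-α, and its call was lost under 21 of 26 alternatives. The median of the 16 was 0.77, and 14 were above 0, as were 6432 of the 12136 genes tested. This median was 0.30 under TPM, 0.37 under quantile normalization and 0.39 with the GC and length correction. Of the 8 tested ADAM and 8 tested ADAMTS proteases and 16 tested matrix proteins none was called, with medians of -0.54, -0.0035 and -0.56. In TNF-α replicate 1 these medians were 0.01, 0.54 and 0.08, and in replicates 2 and 3 they were between -0.90 and -0.20.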

How the data were processed

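The authors deposited gene expression as FPKM, 1 column per library, with gene lengths. Per the labels, libraries were made after oligo(dT) selection with the NEBNext Ultra kit, and the submitters' processing notes name HISAT2 2.0.5, StringTie 1.3.3b and featureCounts 1.5.0. The use of strand and the handling of reads shared by similar genes were not given in the sources used here. All 58735 genes matched GENCODE release 29 (GRCh38) in identifier, name, start and end. A further 6 columns with values of single samples were not used here.

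Reads were recovered from FPKM and gene length, and 100% of values came out whole (tolerance 0.01 reads). Read floors (3 reads) cover counting error only. Genes with at least 1 FPKM in at least 3 libraries were tested as log2(FPKM + 1), a scale that understates changes of low genes, with limma 3.58.1 in R 4.3.3 (intensity trend, two-sided, Benjamini-Hochberg over all genes tested, threshold 0.05). In the GC and length correction, log2 ratios to the mean of all libraries were fitted with natural splines (5 degrees of freedom each, with products) of the GC content and length of the longest transcript, and the fitted values were subtracted. The limma script was tested on simulated data with the spread of the NC libraries in both groups. The split within the TNF-α group was not simulated, so the test does not cover it. Tables used Python 3.11.15.

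Named genes were the 10 members, NFKBIA, up to 4 called genes per list with the largest change, and the 3 genes most correlated with the member of smallest adjusted p. The members and lists were chosen with earlier results of these data known. Alternatives were other pseudocounts, filters, scalings, tests, protein-coding genes only, a replicate block, and libraries left out. Limma-voom on all genes with reads, TNF-α replicate 1 as the only treated library, and the correction without each library were added after seeing the data. One marker of the leukocyte list is not reported here.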

Additional observations from a re-analysis of the deposited data

How the results depend on the processing

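No tested member passed in the comparison as reported. The number of members past the threshold stayed at 0 except with the GC and length correction (2), without TNF-α replicate 1 (4, so the range over left-out libraries was 0 to 4), with TNF-α replicate 1 as the only treated library (1), and with the correction without TNF-α replicate 1 (4). Of the 12136 genes, 123 passed as reported. With every gene above 0 in the test 58 passed, under TPM 58, under quantile normalization 185, with the GC and length correction 338, with limma-voom on recovered reads 77, and with TNF-α replicate 1 as the only treated library 732. Leaving out 1 library gave 10 to 9630, the latter without TNF-α replicate 1, and with the correction 46 to 8588 (53, 48 and 46 without NC replicates 1 to 3, 8588, 109 and 63 without TNF-α replicates 1 to 3). With the replicate block 24 genes and 0 members passed. Deviations of same-numbered libraries had correlations of -0.01, -0.18 and 0.12, and those of differently numbered libraries ran from -0.16 to 0.18. With 3 libraries per group and TNF-α replicates 2 and 3 apart from replicate 1, these values cannot show whether the numbers pair the samples.

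The direction of MMP14, MMP2, TIMP1 and TIMP2 held in each of 26 alternatives, spanning log2 fold changes of 0.31 to 0.91, -0.82 to -0.26, 0.02 to 1.72 and -0.67 to -0.11. MMP15 reversed once, to -0.0133, with the correction without TNF-α replicate 1; the cause was not tested. The summed level of the metalloproteinases, 1.41-fold of NC as FPKM, was 1.00-fold under TPM, and that of the TIMPs 1.19-fold instead of 1.78-fold, where the scaled library totals no longer enter. Members with few reads (MMP1, MMP3, MMP9, MMP10) are limited by depth.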
